A study of Mus musculus with 15 samples.

Results

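Small noncoding RNA genes were followed through 15 single Tomato+ cells of mouse inguinal white fat. The members were the rows whose symbol names a Y RNA, a U RNA, a 7S RNA, a vault RNA, the RNA of RNase P or MRP, a snoRNA, a scaRNA or a miRNA. The rule took 25 of 8446 rows: 16 with symbols that begin with Rnu, 4 with Rn7s, 2 with Rny and 1 each for Vaultrc5, Rpph1 and Scarna17. It took no row for Snora, Snord, Rmrp or Mir symbols, and these genes were not analysed here. By annotation 10 of the 16 Rnu rows are U3, a nucleolar RNA, and 6 are spliceosomal.

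The cells came from adult C57BL/6 mice of genotype Prrx1-CreERT;Tomato, in which tamoxifen lets a Cre recombinase driven by Prrx1 switch on the Tomato reporter for good. All mice had tamoxifen at 2 mg per 30 g on each of 3 days, and there was no untreated or reporter-negative group. Cells were freed with collagenase, sorted for Tomato and picked one by one under a microscope, and the labels tie no cell to an animal, so they are treated here as a single sample, without tests. The Cre marks any cell in which Prrx1 was active during treatment, so the sorted cells need not be of 1 type. Of the stromal markers, Col1a2, Col3a1, Cd34 and Lum were on in all 15 cells, Pdgfra in 14 and Prrx1 in 12. Adipoq, Plin1, Lep, Pecam1, Cdh5, Kdr, Ptprc, Cd68, Lyz2 and Hba-a1 were not analysed here. The erythroid gene Alas2 was on in 14 cells, at a median of 2.18, the immune gene Csf1r in 4 and the endothelial gene Tek in 1.

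Cells 5 and 13 stood apart by mural markers, which label the cells around small vessels. The summed level of Rgs5, Kcnj8, Higd1b and Abcc9 reached 33.4 (cell 5) and 28.7 (cell 13), while the remaining 13 cells had from 0.080 to 7.84. Cell 5 had all 4 at 5 FPKM or more and cell 13 had 3, and in cell 13 Pdgfra (0.20) and Prrx1 (0.43) were off. Counts and correlations below are also given without these cells where they rest on them, an alternative chosen after seeing the data, and the part of cell type in them was not tested.

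Values are log2(FPKM + 1), where FPKM is fragments per kilobase of transcript and unit of library size, and they had been brought to 1 common distribution over the cells, with a top of 13.69 in each cell. A gene is called on in a cell at 1 FPKM or more, a value of 1 on this scale, and off below it. After that step each cell had 4369 rows on, so a call at any threshold is a rank within the cell. The lowest value of a cell, 0 in 12 cells and at most 0.0013 in cells 1, 11 and 14, is shared by many rows, and between 6472 and 7516 rows stood above it. Read depth is unknown, and intervals on shares of cells are exact Clopper-Pearson 95% intervals that cover counting error only.

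These RNAs work inside ribonucleoproteins and are not translated. U1, U5 and U6 belong to the spliceosome, U3 guides early cleavage of the ribosomal RNA precursor in the nucleolus, and scaRNAs guide modification of spliceosomal RNAs in Cajal bodies. The 7SK RNA holds the elongation kinase P-TEFb inactive, the 7SL RNA is the scaffold of the signal recognition particle (SRP), and the RNA of RNase P trims the 5′ ends of tRNA precursors. Y RNAs bind the Ro60 and La proteins, and vault RNAs sit in the large vault particle. The genes of Y RNAs, vault RNAs, 7SK, 7SL, RNase P RNA and U6 are transcribed by RNA polymerase III, and U1, U3 and U5 by RNA polymerase II. Most of these RNAs carry no poly(A) tail, while the library kit named in the labels primes on one. In the 25 sequences the longest run of A was between 2 and 4 bases, and how these RNAs entered the libraries was not tested.

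Sequences are shown because what a row can measure depends on how many genes share its letters. They are the GENCODE M21 transcripts on GRCm38, 5′ to 3′ in DNA letters. The U3 genes come first, since each U3 locus is annotated by a pair of models that differ by the last base, here in capitals. Rnu3b1 lies at chr11:87443237-87443452, plus strand, and Rnu3a at chr10:40258467-40258680, plus strand.
Rnu3b1, 216 nt: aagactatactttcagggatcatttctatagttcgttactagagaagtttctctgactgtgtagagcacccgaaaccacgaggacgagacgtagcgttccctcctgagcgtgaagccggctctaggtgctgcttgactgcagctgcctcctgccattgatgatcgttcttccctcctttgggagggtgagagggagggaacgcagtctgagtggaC
Rnu3a, 214 nt: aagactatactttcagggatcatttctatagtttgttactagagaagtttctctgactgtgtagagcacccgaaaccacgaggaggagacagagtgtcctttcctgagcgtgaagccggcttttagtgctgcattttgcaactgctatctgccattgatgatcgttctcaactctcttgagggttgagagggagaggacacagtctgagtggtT
The Rnu3b1, Rnu3b2, Rnu3b3 and Rnu3b4 genes, spread from 87443237 to 87471583 on the plus strand of chromosome 11, were identical over the 215 bases of their shorter models. The shorter Rnu3b1 and Rnu3a models were 85.6% identical.

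The U1 genes differ at few positions, and capitals mark the bases that differ from Rnu1a1 (chr11:87422867-87423030, plus strand). Rnu1b1 lies at chr3:96359953-96360117, minus strand, and Rnu1b6 at chr3:96460024-96460189, minus strand.
Rnu1a1: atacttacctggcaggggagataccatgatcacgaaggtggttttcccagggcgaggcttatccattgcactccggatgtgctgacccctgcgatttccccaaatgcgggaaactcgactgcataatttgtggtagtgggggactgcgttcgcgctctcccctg
Rnu1b1: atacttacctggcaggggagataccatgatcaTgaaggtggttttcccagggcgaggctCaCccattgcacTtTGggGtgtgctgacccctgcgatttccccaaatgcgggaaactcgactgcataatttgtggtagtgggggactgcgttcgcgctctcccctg
Rnu1b6: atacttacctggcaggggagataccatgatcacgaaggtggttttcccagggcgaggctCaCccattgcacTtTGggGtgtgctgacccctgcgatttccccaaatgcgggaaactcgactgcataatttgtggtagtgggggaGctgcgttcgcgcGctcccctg
Counted from the 5′ end of Rnu1a1, Rnu1b1 carried the 6 changes C33T, T60C, T62C, C73T, C74G and A77G and 1 inserted base. Rnu1b6 carried T60C, T62C, C73T, C74G, A77G and T156G and 2 inserted bases. Rnu1b2, at chr3:96374021-96374185 on the plus strand, has the same 165 bases as Rnu1b1.

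Rny3 and 7SK, which each reached the top of the scale in a cell, and Rny1, the other Y RNA, are printed with a known element in capitals: the final run of T that La binds in Y RNAs, and GATC in 7SK, the motif that the P-TEFb inhibitor Hexim1 recognizes. GATC, searched on the printed strand alone, occurred in 3 places, all within the first 100 bases of 7SK, which are the ones printed. These matches are descriptions of the letters. Rny3 lies at chr6:47781624-47781725, plus strand, Rny1 at chr6:47788069-47788180, minus strand, and Rn7sk at chr9:78175303-78175633, minus strand.
Rny3: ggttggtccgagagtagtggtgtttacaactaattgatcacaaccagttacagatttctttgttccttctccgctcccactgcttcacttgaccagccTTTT
Rny1: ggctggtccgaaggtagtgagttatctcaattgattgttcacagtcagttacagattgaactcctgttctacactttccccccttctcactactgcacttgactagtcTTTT
Rn7sk, bases 1 to 100: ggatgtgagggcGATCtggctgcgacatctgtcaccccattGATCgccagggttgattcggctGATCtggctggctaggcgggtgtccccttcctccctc
Rny3 and Rny1 were 72.3% identical over their aligned length.

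The 25 rows therefore hold fewer separate measurements than rows. They cover 20 symbols at 20 loci, 19 distinct patterns of values over the cells and 11 families, where a family joins rows of the same RNA. The 4 shorter Rnu3b rows had equal values in all 15 cells, and so had the 4 longer ones. These 8 rows were most of the 10 rows of the whole table that equal another row in each cell. Rn7s1 and Rn7s2 differed by at most 0.0012 in any cell, and Rnu1b1 and Rnu1b2 by at most 0.31. Copies outside the table add to this. At 90% identity over 90% of the length, Rnu6 had 329 further annotated loci, 42 of them with its exact sequence, and Rnu1a1 had 34. Rnu3b1 had 10, other member loci among them, Rnu5g 5, Rny1 2 and Vaultrc5 1, and Rn7sk, Rpph1, Rny3, Rn7s6 and Scarna17 had 0. The search covered annotated transcripts of at most 400 nt alone. Partial, more diverged or unannotated copies were not sought, so a 0 does not make a row unique. How the authors' counting treated reads that fit several copies is not given in the sources used here. Values of U1, U3, U5, U6, Rn7s1, Rn7s2, Rny1 and Vaultrc5 rows are therefore uncertain as values of the named gene.

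**Figure D1:**
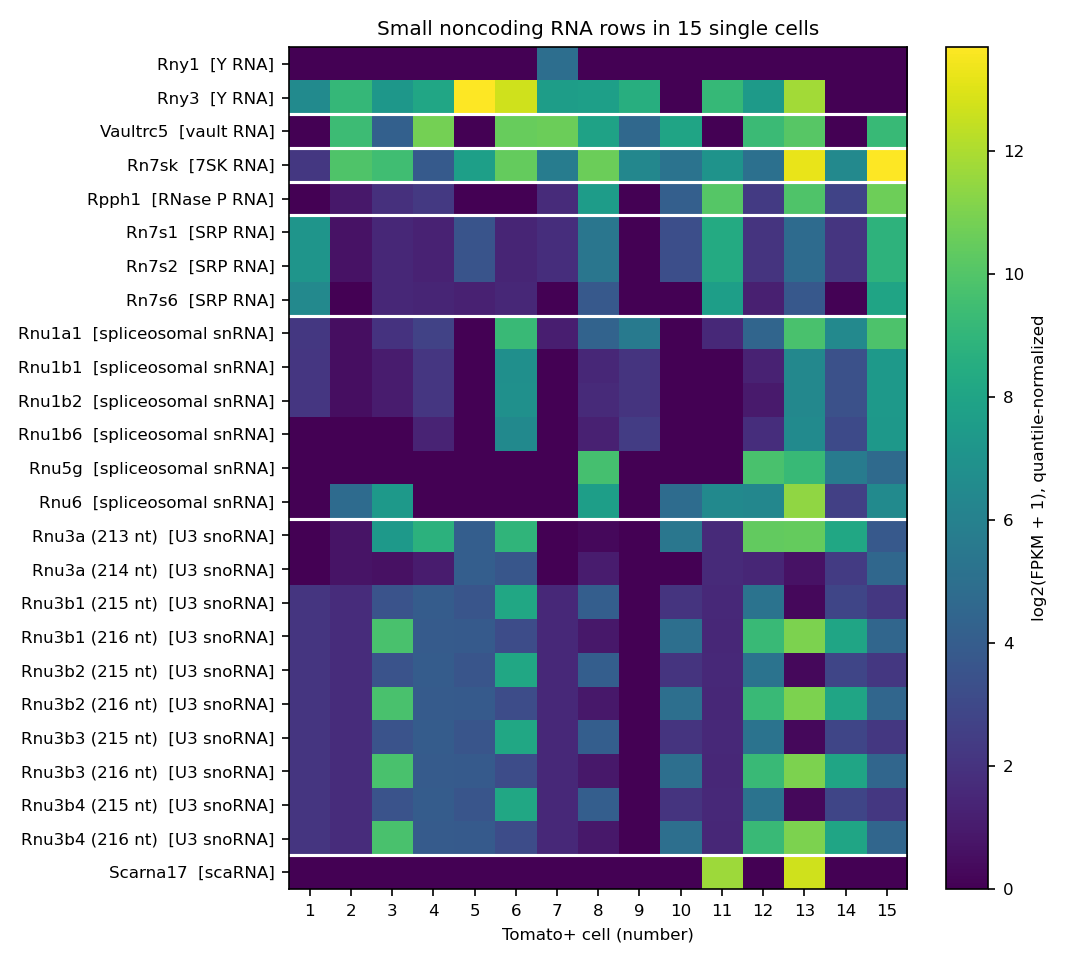
Values of the 25 small RNA rows (vertical, with class) in the 15 cells (horizontal), as log2(FPKM + 1) by colour from 0 to 13.69. Rny3, Vaultrc5, Rnu5g, Rnu6 and Scarna17 are bright in some cells and dark in others, and the Rnu3b rows repeat 2 patterns.

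The small RNA rows had more values at the bottom of a cell and at high levels than rows at large, and few just above the bottom. Of their 375 values 24.3% lay at the lowest value of the cell, 5.87% between it and 1 FPKM, and 21.9% at 100 FPKM or more. Over all rows these shares were 16.9%, 31.4% and 12.8%. The rest of the small RNA values were spread over the middle, with 23.2% from 1 to 5 FPKM and 24.8% from 5 to 100 FPKM, against 11.3% and 27.7% of all rows. With 1 value per family and cell, taken from the family's highest row, they were 35.2%, 1.82% and 31.5%. Length goes along with this: the members are 79 to 331 nt long, against a median longest transcript of 3264 nt over all rows. The 25 other rows of at most 400 nt had 28.8%, 15.5% and 24.5% in the same bins. The share at 100 FPKM or more was thus no higher in the small RNA rows than in these. These other rows are not matched to the members in length, with a median of 381 nt against 215 nt. They also include AF357425, a snoRNA gene described at the end. Without cells 5 and 13 the shares of the small RNA rows were 24.6%, 5.23% and 20.6%.

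**Figure D2:**
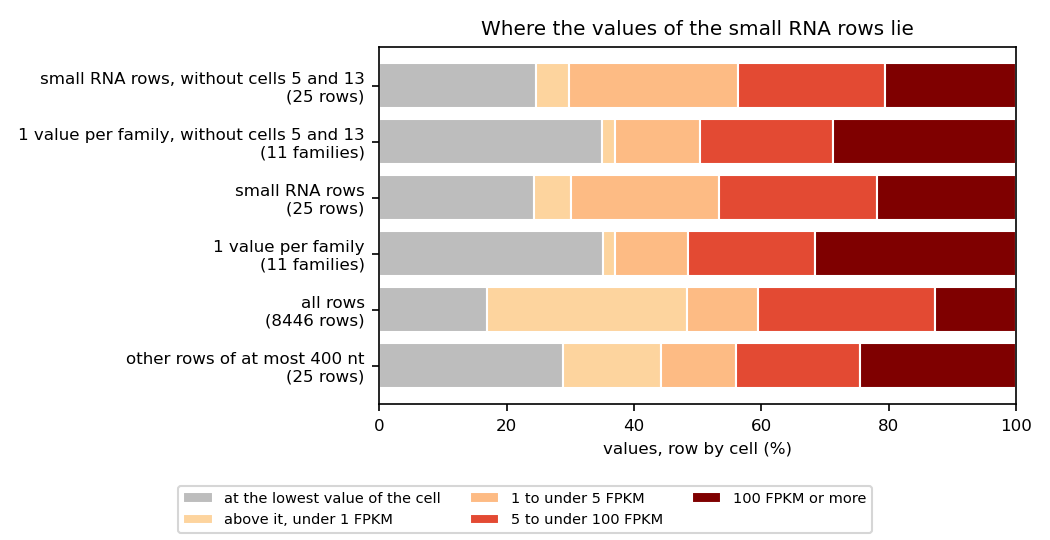
Share of values (horizontal, in percent) in 5 ranges of FPKM, for the 25 small RNA rows, their 11 families, all 8446 rows and 25 other rows of at most 400 nt. The band above the lowest value and under 1 FPKM is 5.87% for the small RNA rows and 31.4% for all rows.

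Read row by row, 22 of the 25 small RNA rows stood at the lowest value of at least 1 cell and at 100 FPKM or more in another, beside 17.3% of all rows and 7 of the 25 other short rows. The 3 exceptions were Rny1 and the 214 nt model of Rnu3a, which stayed under 100 FPKM, and Rn7sk, which was above the lowest value in every cell. A stricter form of on and off, with cells in both states and no value between the lowest value of the cell and 1 FPKM, was met by 7 rows, beside 1.33% of all rows and 6 of the 25 other short rows. These were Rny1, Rny3, Vaultrc5, Rnu1b6, Rnu5g, Rnu6 and Scarna17. Both measures were chosen after values were seen. At 1 FPKM 22 of 25 rows were on in 8 or more cells, beside 46.8% of all rows, but 10 of the 22 are U3 rows. By family the count was 8 of 11. The repeated U3 rows thus weigh on any count by row.

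Of the Y RNAs, Rny3 was either at a high FPKM or at the lowest value, and Rny1 was nearly always off. Rny3 was on in 12 of 15 cells (80.0%, interval 51.9% to 95.7%), with a lowest on value of 6.56, a median over all cells of 7.74 and a highest of 13.69. It stood at 13.69 in cell 5, 12.72 in cell 6 and 11.81 in cell 13, at between 6.56 and 9.17 in the other 9 cells in which it was on, and at the lowest value in cells 10, 14 and 15. In cell 5 it was the highest of all 8446 rows, so its level there is a rank and not a measured excess over other cells. No cell lay between the states: the step from off to the lowest on value spans more than 6 units on the log2 scale. Rny3 is 102 nt long, and the other rows of at most 150 nt also had no value between the states. The step cannot be told apart from length in FPKM. Rny1, its neighbour on the other strand of chromosome 6, was on in cell 7 alone (4.94; 6.67% of cells, interval 0.17% to 31.9%), where Rny3 stood at 7.62.

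Vaultrc5, the mouse vault RNA (chr18:36801866-36802008, plus strand, 143 nt), was on in 11 cells (73.3%, interval 44.9% to 92.2%). Its values when on ran from 4.19 in cell 3 to 10.81 in cell 4, with a median of 9.33 over the cells in which it was on and 8.01 over all cells. It was at the lowest value in cells 1, 5, 11 and 14. Cells 1, 11 and 14 are also the 3 cells with the fewest rows above their lowest value (6587, 6472 and 6569), and across the 15 cells Vaultrc5 had a Spearman correlation of 0.52 with that number of rows. The part of library breadth in its off calls was not tested. Rny3 and Vaultrc5 were not off in the same cells, except in cell 14.

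Rn7sk, the 7SK RNA, was the 1 member on in all 15 cells (interval from 78.2%). Its value ran from 2.20 in cell 1 to 13.69 in cell 15, with a median of 7.02, and it was the highest row of cell 15. It reached 100 FPKM in 8 cells and 5 FPKM in 14. It stood at 13.26 in cell 13 and 10.63 in cell 8, and 7 cells reached 1% of its highest linear value while the rest did not. Thus a member that is never off still varied over much of the scale of the table.

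Rpph1, the RNA of RNase P (chr14:50807449-50807767, minus strand, 319 nt), was on in 10 cells (66.7%, interval 38.4% to 88.2%) and split them into high and low. Its highest value was 10.70, in cell 15, and cell 11 had 10.09, cell 13 had 9.92 and cell 8 had 7.56. Cell 10 had 4.13, the other 5 cells in which it was on had between 1.71 and 2.75, cell 2 had 0.90, and cells 1, 5, 6 and 9 were at the lowest value. At 1% of its highest value 4 cells remained. The 5′ end of Ccnb1ip1, a gene of meiotic recombination on the same strand, overlaps Rpph1 and was not analysed here.

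The SRP RNAs were on at low values in most cells and high in 3. Rn7s1 (chr12:69159295-69159594, plus strand, 300 nt) was on in 13 cells (86.7%, interval 59.5% to 98.3%), with a median of 2.11 and values of 8.85 in cell 15, 8.38 in cell 11 and 7.16 in cell 1. The next cell, cell 8, had 5.38. Rn7s2 (chr12:69361182-69361481, minus strand), of the same sequence, had the same values to within the small difference given above. Rn7s6 (chr6:69516339-69516629, plus strand, 291 nt) was highest in the same 3 cells (7.99, 7.65 and 6.45) and was on in 10 cells with a median of 1.40. At 5 FPKM Rn7s1 was on in 7 cells and Rn7s6 in 5. The mean Spearman correlation over the 3 row pairs was 0.82, as a description of rows of 1 RNA family.

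The U1 rows followed each other, with Rnu1a1 at the higher level. Rnu1a1 was on in 12 cells (80.0%, interval 51.9% to 95.7%), with a median of 2.69 and a highest value of 9.87 in cell 15, followed by 9.77 in cell 13 and 9.27 in cell 6. It was off in cells 2, 5 and 10. Rnu1b1 stood at 7.34, 6.38 and 6.83 in those 3 highest cells, and Rnu1b6 at 7.30, 6.53 and 6.50. Rnu1b1 was on in 10 cells, Rnu1b2 in 9 and Rnu1b6 in 8. Between Rnu1b1 and Rnu1b2, whose sequences are identical, the call differed in cell 12, at 1.30 against 0.99. The mean Spearman correlation over the 6 pairs of U1 rows was 0.92, as a description of rows that share most of their letters.

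Rnu5g and Rnu6 were off in many cells and high when on. Rnu5g, a U5 gene (chr9:65201726-65201841, minus strand, 116 nt), was on in 5 cells (33.3%, interval 11.8% to 61.6%): cell 12 had 9.74, cell 8 had 9.65, cell 13 had 9.23, cell 14 had 5.72 and cell 15 had 4.74. The other 10 cells were at the lowest value. Rnu5g lies within Parp16, which encodes an ER-bound ADP-ribosyltransferase, on the opposite strand, and Parp16 was on in cells 2 (3.78) and 8 (2.54). Of the 5 cells with Rnu5g on, 1 also had Parp16 on. Rnu6 (chr17:13432033-13432139, minus strand, 107 nt) was on in 9 cells (60.0%, interval 32.3% to 83.7%), from 2.62 in cell 14 to 11.40 in cell 13, with 7.66 in cell 8 and 7.39 in cell 3 next. All 5 cells with Rnu5g on also had Rnu6 on.

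At the U3 loci, gene models that differ by 1 base at the end gave opposite calls for the same stretch of DNA. In cell 13 the 216 nt model of Rnu3b1 stood at 10.99 and the 215 nt model at 0.30. In cell 6 the order was the other way, with 3.20 for the longer model and 8.16 for the shorter. The longer Rnu3b model was higher by more than 2 units in 6 cells (3, 10, 12, 13, 14 and 15) and the shorter one in 2 cells (6 and 8). In 6 cells the models were within 0.1 of each other, and all of these stood at 3.99 or lower. Each model was on in 13 cells, but not the same 13: the shorter was on and the longer off in cell 8 (4.10 and 0.87), and the reverse held in cell 13. The Spearman correlation between the models across the 15 cells was 0.24.

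At Rnu3a the shorter model was the high one. The 213 nt model exceeded the 214 nt model by more than 2 units in 7 cells, and the opposite occurred in none. The difference was largest in cell 13, at 10.44 against 0.67, followed by cell 12, at 10.40 against 1.48. The 213 nt model was on in 10 cells, with a median of 4.12, and the 214 nt model in 8, with a median of 1.02 and a highest value of 4.59 in cell 15. Their calls differed in cells 3, 8, 10 and 13. In cells 3, 10, 12, 13 and 14 the longer model was higher by more than 2 units at Rnu3b and the shorter one at Rnu3a. These 5 loci were the only pairs of rows with different gene identifiers in the table that shared strand and both ends to within 5 nt, so the pattern has no further case here to be compared with.

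**Figure D3:**
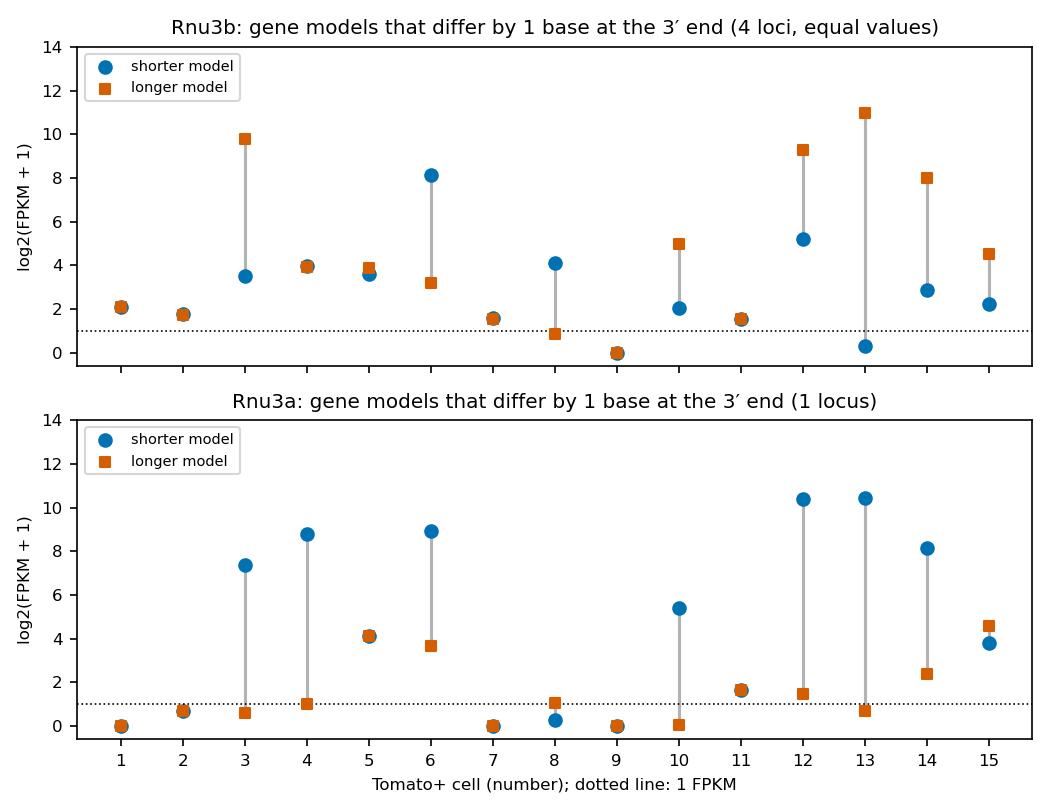
Value in log2(FPKM + 1) of the shorter (circle) and longer (square) gene model of Rnu3b1 (top) and Rnu3a (bottom) in each cell, joined by a grey line, with 1 FPKM dotted. In cell 13 the Rnu3b1 models stand at 0.30 and 10.99 and the Rnu3a models at 10.44 and 0.67.

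Taken by its highest row, U3 as a family was on in 14 cells (93.3%, interval 68.1% to 99.8%) and off in cell 9, where all 10 rows stood at 0. It reached 100 FPKM in 6 cells, with 10.99 in cell 13 as the highest and 8.14 in cell 14 as the lowest of them, and cells 3, 4, 6 and 12 between. Rnu1a1 and the 8 Rnu3b rows lie inside the bounds of Tex14, a gene of germ cell bridges on the same strand. Tex14 was not analysed here, and no same-strand host gene of any member had a row.

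Scarna17 (chr18:74778391-74778469, minus strand, 79 nt) was on in 2 cells (13.3%, interval 1.66% to 40.5%), at 12.72 in cell 13 and 11.69 in cell 11. The other 13 cells were at the lowest value. With 12.72 it was the fourth highest row of cell 13. It is also the shortest member, and its linear value multiplied by its length in kilobases placed it 563rd in that cell. Each row's length was that of its longest annotated transcript, so this is not a rank by fragments.

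FPKM divides by length, so a short RNA gains rank. Rny3 held rank 1 in cell 5 by FPKM and rank 188 after its value was multiplied by length. Rn7sk went from rank 1 to 38 in cell 15, Vaultrc5 from 43 to 1064 in cell 4, and Rnu6 from 22 to 932 in cell 13. The values had been normalized and the length was that of the longest annotated transcript, so these ranks are rough and not ranks by fragments. Among the members, the shortest rows also had the higher lowest on values, without a steady trend beyond them. The median was 1.11 in members of 150 to 200 nt and 1.54 in those of 200 to 400 nt. In other rows it was 1.85 at 200 to 400 nt, 2.07 at 400 to 1000 nt and 1.57 in longer ones. A lowest on value also depends on the number of cells on, which was 1 for Rny1 and 2 for Scarna17. In the 6 rows of at most 150 nt the lowest on value was between 2.62 and 11.69, and in the 19 longer rows it was between 1.02 and 2.20. All 6 short rows, and 2 of the 19 longer ones (Rnu1b6 and Rn7sk), had no value between the lowest of the cell and 1 FPKM. Over the 19 distinct patterns the Spearman correlation of length with the lowest on value was -0.46, where several patterns share a family. The sharpness of the on-off contrast and the length of the RNA cannot be told apart among the shortest members.

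**Figure D4:**
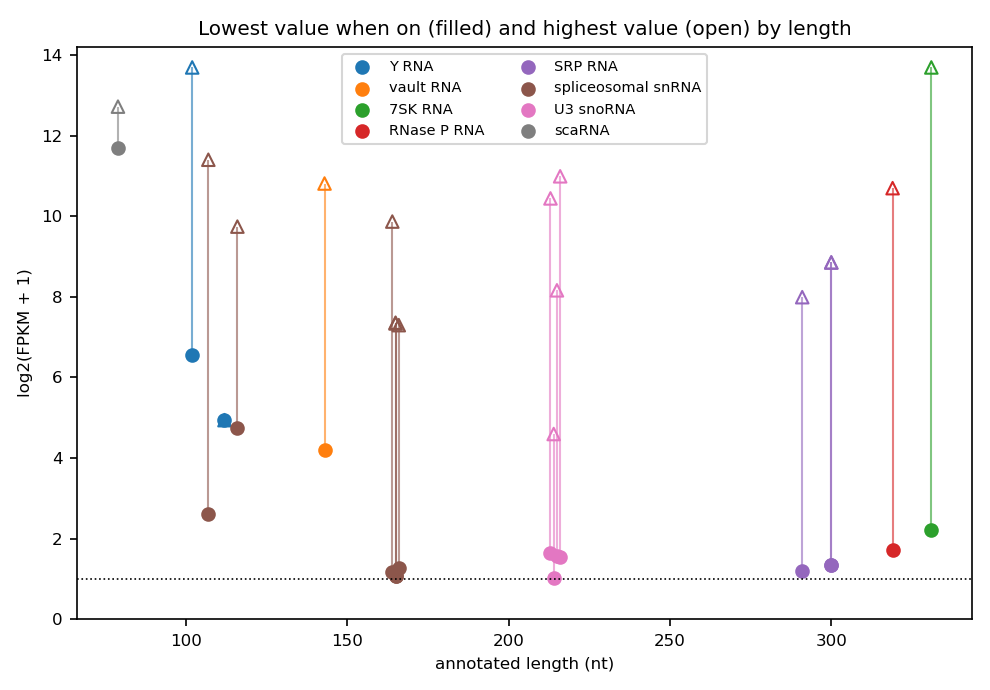
Annotated length in nt (horizontal) against log2(FPKM + 1) (vertical) for the 19 distinct patterns, with the lowest value among cells in which the row is on (filled circle) and its highest value (open triangle), by class. The 6 rows of at most 150 nt start at 2.62 or higher, and the longer ones at 2.20 or lower.

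Cells differed in how many of the 11 families they had on, from 4 to 10 with a median of 7. Cell 13 had 10 on, all but Rny1, and 9 of them at 100 FPKM or more. Cells 8 and 12 had 9 on. Cells 5 and 9 had 4 on, and cell 5 nonetheless held the highest Rny3. Only 1 family reached 100 FPKM in cells 1, 9, 10 and 14. The members' share of the summed linear normalized values was highest in cell 13 (6.11%), followed by cell 15 (3.09%), cell 5 (2.29%) and cell 6 (2.06%). This share follows the ranks of the members in a cell and is not a share of reads. Its median over cells was 0.575%, and cell 1 had the least (0.0849%). With 1 row a family cell 13 had 4.80%. The number of families on had a Spearman correlation of 0.27 with the number of rows above the lowest value, over 15 cells. Of the cells with high mural markers, cell 13 had the most families on and cell 5 was among the fewest, tied with cell 9, whose summed mural level was the lowest. Without cells 5 and 13, 22 rows and 8 families were still on in a majority of cells.

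**Figure D5:**
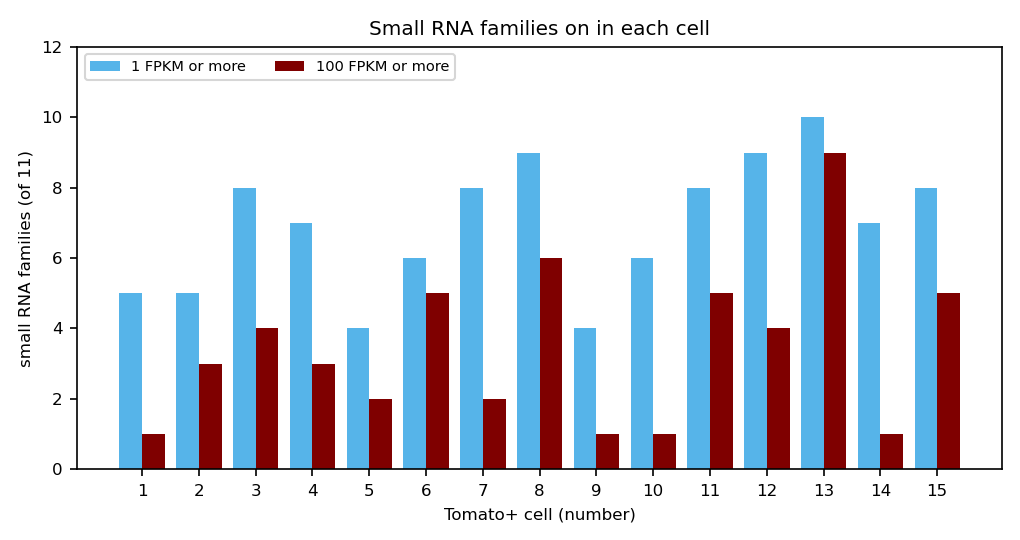
Number of the 11 small RNA families (vertical) at 1 FPKM or more (light bars) and at 100 FPKM or more (dark bars) in each cell (horizontal). Cell 13 has 10 and 9 families, and cells 5 and 9 have 4 on.

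Some families tended to be high in the same cells. Of the 36 pairs among the 9 families on in at least 3 cells, Rpph1 and Rnu6 had the highest Spearman correlation, 0.77, with both on in 8 cells, both off in 4 and a mismatch in 3. Rpph1 with Rnu5g had 0.65, Rnu5g with Rnu6 0.64, and Rpph1 with the SRP family 0.62. Without cells 5 and 13 these 4 values were 0.71, 0.60, 0.55 and 0.71. The SRP family with Rnu5g had 0.60 and U1 with Rnu5g 0.53, and without cells 5 and 13 these were 0.65 and 0.42. Rn7sk had 0.51 with Rnu6 and 0.30 with Rpph1, and without cell 13 these were 0.41 and 0.17. Rny3 and Vaultrc5 had coefficients of both signs, and so had each of the other families compared except Rn7sk. Rny3 ranged from -0.38 with Rpph1 to 0.29 with Rn7sk, and Vaultrc5 from -0.39 with the SRP family to 0.25 with U3. Without cell 13 the upper values were 0.21 and 0.16. Over all 36 pairs the mean was 0.20 and the range -0.39 to 0.77, and the mean fell to 0.11 without cells 5 and 13 and to 0.10 without cell 13 alone. The cells share their normalization and an unknown number of mice, and ties at the lowest value weigh on each coefficient.

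As a whole list, genes of the proteins that bind, build or transcribe these RNAs were mostly on in 8 or more cells, but roles differed. By role the count was 3 of 8 for assembly factors, 3 of 9 for RNase P and MRP, and 2 of 5 for the miRNA pathway. It was 6 of 13 for polymerase III and snRNA transcription, 4 of 6 for 7SK, and 3 of 4 for the C/D and the H/ACA snoRNP each. Every analysed gene of the Sm and LSm, snRNP, SRP, La and vault roles reached it. La and vault had 1 analysed gene each. Of 101 listed genes 80 had a row, 55 were on in 8 or more cells, beside 46.8% of all rows, and 14 were on in each cell. All 15 analysed genes of the Sm and LSm ring proteins were on in 8 or more cells, led by Snrpg (median 8.84) and Snrpe (8.75). The 5 analysed proteins of single snRNPs were too, among them Snrpc (14 cells, 4.98) of U1 and Snrpb2 (14 cells, 5.57) of U2. The U1 RNA was off in cells 2, 5 and 10, and Snrpc was on in cells 2 and 5.

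All 9 analysed SRP and SRP receptor genes were on in 8 or more cells, with Srp14 at a median of 8.53 and Srp19 at 7.08. The separate values of Srp54a and Srp54b, near-identical copies, are uncertain. Of the RNase P and MRP proteins, 3 of 9 were on in 8 or more cells: Rpp21 in 15 (median 8.42), Pop5 in 13 (4.01) and Pop4 in 8. Of the C/D snoRNP core, which U3 uses, Snu13 was on in 15 cells (7.39), Nop58 in 14 (6.65) and Nop56 in 13, and the methyltransferase Fbl in 5. Of the H/ACA core, Nop10 was on in 14 cells (7.96) and Nhp2 in 13 (5.90), and the pseudouridine synthase Dkc1 in 5. Of the 8 assembly factors 3 were on in 8 or more cells, with Znhit3 and Znhit6 in 9 each (medians 2.91 and 1.43).

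La, encoded by Ssb, was on in all 15 cells with a median of 7.71, including the 3 cells with Rny3 off, and Ro60 was not analysed here. Of the 7SK proteins, Larp7 was on in 11 cells (4.01), Ccnt1 of P-TEFb in 11 (1.94) and Hexim1 in 6. Mvp, the main vault protein, was on in 9 cells (1.48), in 6 of them together with Vaultrc5. Of the polymerase III and snRNA transcription genes 6 of 13 were on in 8 or more cells, with Snapc5 in 14 (7.25) and Snapc3 in 11 (2.27), both of the complex that binds snRNA promoters. Of the miRNA pathway 2 of 5 were, Tarbp2 in 9 cells (1.11) and Ago2 in 8 (1.23).

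Levels of the RNAs and of their proteins' genes showed no common order across the cells. Over 19 pairs of an RNA family and a partner gene the Spearman correlations ran from -0.65 for U3 with Fbl to 0.80 for Rpph1 with Pop4, with a median of 0.03. Rpph1 and Pop4 were both on in 8 cells and both off in 5, and Rpph1 was on alone in 2. Rpph1 with Pop5, another subunit of the same enzyme, had -0.53. Rn7sk with Larp7 had 0, and Vaultrc5 with Mvp 0.04.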

How the data were processed

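The series holds 15 single Tomato+ cells, 1 library each, prepared from SMART-Seq v4 3′ DE cDNA with the Nextera XT kit, per the labels' protocols. TopHat2, Cufflinks and GRCm38 are named in the submitters' processing notes, without version or settings. The deposited values, named FPKM, were read as log2(FPKM + 1): they end at 13.69, and their linear sum averages 592948 per cell. The sorted columns agree to within 0.0354 above 0.2, so the authors' log2 values were also quantile-normalized, and each cell has 4369 rows at 1 FPKM or more, not the same rows in each. Neither step is recorded in a label. Depth is unknown. The table also has 18 empty columns without a header.

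Members were found by symbol, and all 25 matched GENCODE M21. Thresholds of 1, 5 and 100 FPKM were applied on the deposited scale. Some member sequences are not reported here. Sequences were aligned with Biopython 1.88, and near copies were sought with BLAST 2.17.0 at 90% identity and 90% coverage on the plus strand among annotated transcripts of at most 400 nt. Counts and correlations used Python 3.11.15 with pandas 2.3.3 and scipy 1.17.1. Their code was run on simulated rows with no value between off and 5 FPKM, and with Pearson correlation alone. That run checks the code and not calls near a threshold or tied ranks. The members, the lists and most alternatives were chosen with earlier results of these data known. All members of classes of at most 6 rows were named, the 6 broadest, 3 highest and 3 narrowest rows of U3, overlapping genes with a row, and 2 partner genes per role. Partner pairs, families and length ranges were chosen after values were seen. No test across samples was made, since the cells form 1 group with no animal named.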

Additional observations from a re-analysis of the deposited data

How the results depend on the processing

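The count of rows depends on the threshold and on the repeated rows. The median row was on in 12 cells at 1 FPKM, in 7 at 5 FPKM and in 7 when 1% of the row's highest value was also required. Rows on in a majority of cells numbered 22, and 10 under either of these alternatives, and the median number of rows on per cell was 19, and 12 under the 1% alternative. Without all Rny, Rnu and Rn7s symbols, taken as multi-copy by name, which leaves Vaultrc5, Rpph1 and Scarna17, the median cell had 2 rows on and 2 rows were on in a majority of cells. Without the rows that have a near copy at another locus, which leaves 7 rows with Rn7sk and Rny3 among them, these values were 5 and 6. No member had a same-strand host with a row, and 1 had one with either strand allowed (Rnu5g with Parp16). Multiplying by length gave no host comparison, since no same-strand host had a row. The other 43 alternative values of the summary counts and correlations stayed within 1.5 times the main count, or within 1 SD over pairs for correlations, among them those without cell 13, without cells 5 and 13, and without cells 1, 11 and 14. The fold change of the mean correlation between families, from 0.20 to 0.10 without cell 13, was larger than 1.5. Of 75 alternative counts of cells for single rows, 21 left the 95% interval of the main count, 10 at 5 FPKM, 10 at the 1% alternative and 1 above the lowest value of the cell. The near-copy, U3 model and family alternatives, those without cells 5 and 13, and those of the correlations between families, were chosen after seeing the data. Depth is unknown, so off calls cannot be read as absence. No paired analysis was possible because the labels give 1 group.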

Other observations

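One further row of the table is annotated as a small RNA without a symbol that the rule takes. AF357425, a snoRNA gene of 73 nt at chr12:109636012-109636084 on the plus strand, lies inside Rian, a noncoding gene of the imprinted Dlk1 and Meg3 domain. It was on in 2 of 15 cells (interval 1.66% to 40.5%), at 13.69 in cell 10, where it shares the top of the scale, and at 12.56 in cell 9. The other 13 cells were at the lowest value. Like Scarna17, the other row under 100 nt among the small RNAs, it was either at the lowest value or among the highest rows. Rian stood at 5.43 in cell 10 and 4.70 in cell 9, and at 6.69, its highest, in cell 11, where AF357425 was off. Mirg, the miRNA host gene of the same domain, was on in 3 cells and highest in cell 10 (7.33), ahead of cell 11 (3.83) and cell 9 (2.36). Meg3, on in 14 cells, stood at 9.61 in cell 9 and 8.34 in cell 10.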
